A study of Mus musculus with 11 samples.

Results

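The Notch pathway was followed through 8 genes, taken by name from the count table, which holds 21957 genes: the receptors Notch1 and Notch2, the protease Adam10, the gamma-secretase subunit Ncstn, the DNA-binding factor Rbpj, the coactivator Maml1, the inhibitor Numb and the target Hes1. All 8 had 1 row each. The cells were primed OT1 cells, mouse CD8 T cells with a transgenic receptor for an ovalbumin peptide, which the series design calls memory cells. They were stimulated for 2 h with beads carrying antibodies against CD3 and CD28, or kept resting without beads (the unstimulated group, labelled T0). Both groups received cycloheximide, which arrests ribosomes, for 10 min before harvest. mRNA was sequenced from 3 stimulated and 3 unstimulated samples, and ribosome footprints, the mRNA fragments that translating ribosomes protect, from 2 stimulated samples (replicates 2 and 3) and 3 unstimulated samples. The labels give no genotype beyond OT1, no age or sex of the mice, and leave the origin of the replicates (cultures or animals) unstated, so p-values measure only the spread between these samples.

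Notch receptors are cut by furin in the secretory pathway and sit at the cell surface. A ligand on a neighbouring cell exposes the receptor to ADAM10, and gamma-secretase, in which nicastrin (Ncstn) is a subunit, then frees the intracellular domain. That domain enters the nucleus and joins RBPJ and a Mastermind protein such as MAML1 to activate genes such as Hes1, while RBPJ without it recruits corepressors. In CD8 T cells the pathway is known for its part in effector differentiation, and T cell receptor stimulation can itself lead to Notch cleavage.

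The upstream sequence of Rbpj is shown because Rbpj was the 1 member whose RNA passed the test. It is the RefSeq sequence of the 250 bases before an annotated start inside the gene's span, chr5:53590096-53590345 on GRCm38.p6, plus strand. Capitals mark matches to the letters TGGGAA, the core that RBPJ itself binds, or to their reverse complement.
Rbpj: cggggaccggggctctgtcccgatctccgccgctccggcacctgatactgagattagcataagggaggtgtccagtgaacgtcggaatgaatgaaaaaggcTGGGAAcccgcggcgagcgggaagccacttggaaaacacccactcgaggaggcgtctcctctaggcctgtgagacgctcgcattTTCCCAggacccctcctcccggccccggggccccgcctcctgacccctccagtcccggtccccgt
The matches begin 149 and 65 bases before the start. Windows of 300 bases, from 250 before to 50 after a start, were in the table for 7 of the 8 members, 10 windows in all. TGGGAA on either strand was in 25.6% of all 32851 windows and in 2 of the 10, both of Rbpj, which overlap and share the match nearer the start shown. The AP-1 letters TGANTCA were in 7.81% of all windows and in none of the 10. The NFAT core GGAAAA was in 23.4% of all windows and in 5 of the 10, those of Rbpj, Maml1 and Numb. In Rbpj 1 NFAT match overlaps the RBPJ match that begins 65 bases upstream. A match in these letters is a description of the window and not a binding site.

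The starts of both receptors and of Adam10 are shown because the footprint results turn on these genes. Capitals mark the first 15 bases after the annotated start, and lower case the 15 bases before it.
Notch1 (chr2:26503808-26503837, minus strand): cgctcagagcctcacTAGTGCCTCTGCCGC
Notch2 (chr3:98013523-98013552, plus strand): agccagaaactttcaGCCAAACTTCGGGCG
Adam10 (chr9:70678967-70678996, plus strand): gaccaggcgaagagcGAGGGCAGGGAAGCG
Messages that begin with a C and a run of pyrimidines, the TOP messages, are known for translation that follows growth signals. A C followed by 4 pyrimidines stood at the start of 823 of the 32851 windows (2.51%) and of none of the 10 member windows.

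RNA libraries held 21658263 to 28115983 counts in stimulated and 29279903 to 39346699 in unstimulated cells, and footprint libraries only 20848 to 23641 and 11136 to 15237. All 8 CD8 T cell markers were present, with summed levels of 2009 to 3129 CPM (counts scaled to library size, with TMM factors) in stimulated and 2595 to 2920 CPM in unstimulated cells. Summed markers of other cells were at 5.36 to 7.77 against 3.82 to 8.10 CPM for 4 B cell genes, 33.5 to 36.7 against 20.2 to 23.9 CPM for 7 myeloid and dendritic genes, and 1.67 to 2.29 against 0.733 to 1.29 CPM for 2 NK cell genes, in stimulated and unstimulated cells. The 3 helper and regulatory T cell genes came to 18.9 to 24.8 against 11.8 to 12.2 CPM, and the 3 erythroid genes to 0.686 to 2.56 against 0.189 to 1.42 CPM. The 3 genes listed as epithelial and stromal came to 52.6 to 75.3 against 102 to 103 CPM. Most of that sum was Pecam1 (means of 53.0 against 96.1 CPM), with Epcam at 6.57 against 4.67 and Col1a1 at 3.13 against 1.51 CPM. Of these markers Cd40lg (log2 change 1.07, adjusted p = 0.00474) and Cd74 (0.99, adjusted p = 0.00712) rose and Pecam1 (-0.86, adjusted p = 0.0145) fell, and their part in the results was not tested. Counts on 1541 olfactory, vomeronasal and defensin genes, taken as a measure of background, came to 2759, 2030.3 and 686 CPM in stimulated replicates 1, 2 and 3, and to 300.2, 1886 and 407 CPM in the unstimulated ones. Under TMM scaling over all 18886 tested genes, the median gene had a log2 change of 0.39 in RNA, so the position of zero depends on the scaling. Leaving out unstimulated replicate 2, of most background in its state, gave 6851 raised and 6173 lowered genes, against 677 and 883 with all libraries. The members were therefore also tested in a restriction to the 8494 genes of at least 10 mean CPM, whose median log2 change was 0.00. In footprint libraries the olfactory, vomeronasal and defensin genes came to 863 and 423 CPM in stimulated replicates 2 and 3. They came to 988, 686 and 1050 CPM in unstimulated replicates 1, 2 and 3, with 10 to 18 counts in each footprint library. The part of the background in the results below was not tested, and fewer cells with a transcript cannot be told apart from less transcript per cell.

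Rbpj (chromosome 5, 53555779 to 53657445), which encodes the DNA-binding protein of the pathway, was the 1 member of 8 whose RNA rose. Its level was 316, 357 and 467 CPM in stimulated cells, against 216, 197 and 208 CPM in unstimulated cells. Every stimulated library lay above every unstimulated one. The means were 380.1 ± 78.0 and 207 ± 9.27 CPM (SD, n = 3 each), a 1.84-fold rise (log2 change 0.88 ± 0.20 SE, adjusted p = 0.0206, edgeR quasi-likelihood test). Across all genes tested, 3.58% were called raised and 4.68% lowered. No member was called lowered, and none had an unadjusted p under 0.05 in that direction or passed with DESeq2 or limma voom. The call for Rbpj was lost without stimulated replicate 1 (adjusted p = 0.209) or 2 (0.278) and without unstimulated replicate 1 (0.0929) or 3 (0.275), and with DESeq2 (log2 change 0.56, adjusted p = 0.0835). The change was positive in all 17 settings run. Annotated pseudogenes of Rbpj have no row in the table, and how reads shared with them were counted is uncertain.

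With the test restricted to genes of at least 10 CPM, the libraries of each state lay closer together. Rbpj was then at 387, 394 and 389 CPM in stimulated cells, against 201, 200.3 and 195 CPM in unstimulated cells. The SD was 3.46 CPM in stimulated and 3.10 CPM in unstimulated cells, and the log2 change was 0.97 ± 0.03 (adjusted p = 1.1e-08). On this scale 36.9% of the 8494 genes were called raised and 36.4% lowered, so a call by itself set no gene apart. Of the 7 members tested there, 3 were raised and 3 lowered. Rbpj had the largest change of the 7.

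**Figure D1:**
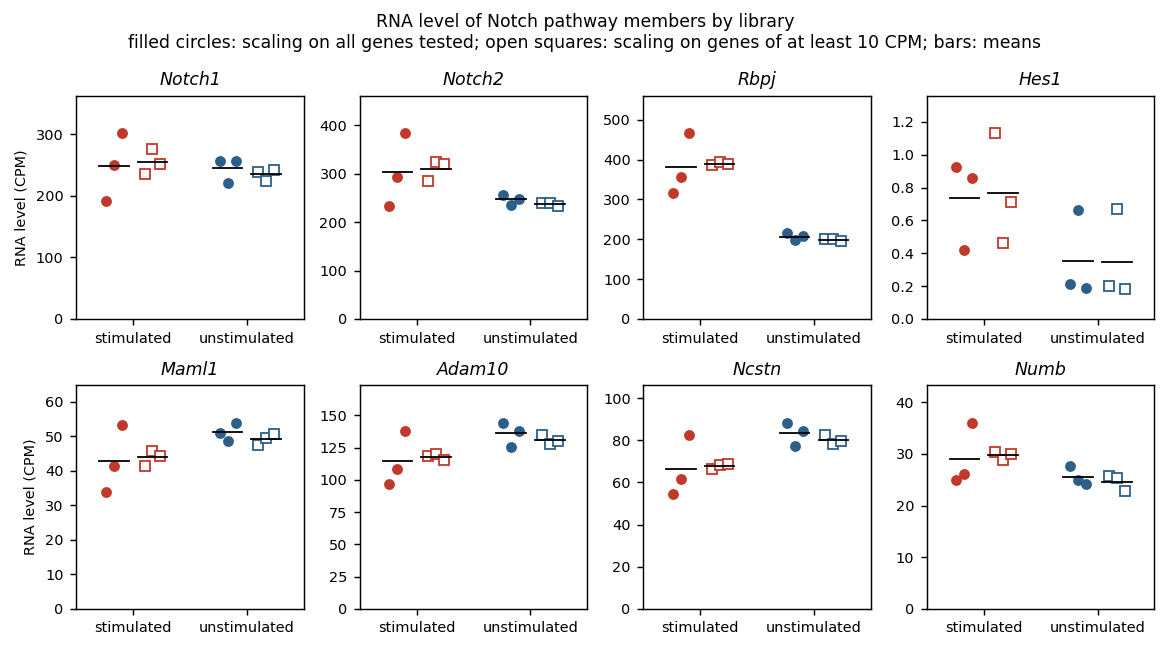
RNA level (CPM, linear axes from 0) of each member in the 3 stimulated (red) and 3 unstimulated (blue) libraries; circles use TMM scaling over all genes tested, squares scaling on genes of at least 10 CPM, and bars are group means. The Rbpj groups stand apart on both scales, and the stimulated circles of most members spread more widely than the squares.

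Notch1 (chromosome 2, 26457902 to 26503822) had nearly the same RNA level in both states. It was at 192, 251 and 302 CPM in stimulated cells, against 257, 221 and 257 CPM in unstimulated cells. The groups overlapped, and the log2 change of 0.02 ± 0.21 did not pass (adjusted p = 0.945). In the restricted test its means were 254.7 ± 20.9 and 235.2 ± 9.32 CPM in stimulated and unstimulated cells (log2 change 0.12 ± 0.06, adjusted p = 0.0983). The direction depended on the scaling: the log2 change was negative in 11 of 17 settings and reached -0.32 without unstimulated replicate 2, where it passed (adjusted p = 0.0188). In that fit 6173 of 19219 genes were lowered. Notch1 lay 0.08 above the median of genes of at least 10 CPM there, which was -0.39.

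Notch2 (chromosome 3, 98013538 to 98150367) was the other receptor among the members. It was at 233, 294 and 384 CPM in stimulated cells, against 257, 236 and 248.5 CPM in unstimulated cells. Stimulated replicate 1 lay below all 3 unstimulated libraries and the other two above all of them. The log2 change of 0.30 ± 0.21 did not pass (adjusted p = 0.370). In the restricted test the stimulated libraries were at 285, 324 and 320.4 CPM and the unstimulated ones at 239.5, 239.8 and 234 CPM, without overlap, and Notch2 was called raised (log2 change 0.38 ± 0.05, adjusted p = 7.2e-05).

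The share of Notch1 in the summed Notch1 and Notch2 counts does not depend on the scaling between libraries. In RNA it was 45.1% ± 1.01 in stimulated cells and 49.7% ± 1.27 in unstimulated cells (SD, n = 3 each), a difference of -4.63 percentage points. The stimulated libraries ranged from 44.0 to 46.1% and the unstimulated ones from 48.4 to 50.9%, so the groups did not overlap. The exact two-sided permutation p was 0.1, the smallest that 20 arrangements allow, so this design could not reach 0.05. Leaving out each library in turn kept the difference between -5.32 and -4.06 points. Reads on the remaining receptors were few: Notch4 averaged 3.48 ± 0.275 against 2.78 ± 0.840 CPM and Notch3 2.31 ± 0.556 against 1.22 ± 0.805 CPM in stimulated and unstimulated cells, and neither passed. Without unstimulated replicate 2 Notch3 was called raised (log2 change 1.38, adjusted p = 0.0234), in a fit where 6851 of 19219 genes were.

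Adam10 (chromosome 9, 70678944 to 70780229), the protease that sheds the ligand-bound receptor, was at 96.7, 109 and 138 CPM in stimulated cells, against 144, 126 and 138 CPM in unstimulated cells. The groups overlapped through stimulated replicate 3. The log2 change was -0.25 ± 0.19 (adjusted p = 0.383). In the restricted test its means were 118 ± 2.47 CPM in stimulated and 131 ± 3.53 CPM in unstimulated cells, without overlap, and it was called lowered (log2 change -0.15 ± 0.03, adjusted p = 0.00274).

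Ncstn (chromosome 1, 172066013 to 172082789), which encodes nicastrin, was at 54.4, 61.8 and 82.7 CPM in stimulated cells, against 88.4, 77.0 and 84.5 CPM in unstimulated cells. Stimulated replicates 1 and 2 lay below all unstimulated libraries and replicate 3 among them. The log2 change was -0.33 ± 0.19 (adjusted p = 0.319). Restricted to genes of at least 10 CPM, its means were 67.8 ± 1.24 CPM in stimulated and 80.0 ± 2.13 CPM in unstimulated cells, and it was called lowered (log2 change -0.24 ± 0.04, adjusted p = 2.8e-04). Ncstn overlaps Copa in the annotation, a gene with 58693 RNA counts, and the labels do not say whether strand was used in counting.

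Maml1 (chromosome 11, 50255634 to 50293131), the Mastermind coactivator, was at 33.9, 41.5 and 53.3 CPM in stimulated cells, against 50.8, 48.7 and 54.0 CPM in unstimulated cells. The groups overlapped, with a log2 change of -0.25 ± 0.18 (adjusted p = 0.370). The restricted test gave means of 43.9 ± 2.19 CPM in stimulated and 49.2 ± 1.71 CPM in unstimulated cells, and Maml1 was called lowered (log2 change -0.16 ± 0.05, adjusted p = 0.0143). Adam10, Ncstn and Maml1 had negative changes in all 17 settings. They were called lowered without unstimulated replicate 2 (adjusted p of 9.6e-05, 2.8e-05 and 1.0e-04 in that order) and without stimulated replicate 3 (0.0165, 0.00436 and 0.0117). In these fits 6173 of 19219 and 4271 of 19468 genes were lowered. The median log2 change of genes of at least 10 CPM was -0.39 and -0.28 there.

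Numb (chromosome 12, 83794034 to 83921942) encodes an endocytic adaptor that limits Notch signalling. It was at 24.9, 26.2 and 36.1 CPM in stimulated cells, against 27.6, 24.98 and 24.2 CPM in unstimulated cells. The groups overlapped and the log2 change of 0.18 ± 0.17 did not pass (adjusted p = 0.444). In the restricted test Numb averaged 29.8 ± 0.799 CPM in stimulated and 24.6 ± 1.63 CPM in unstimulated cells, and it was called raised (log2 change 0.28 ± 0.06, adjusted p = 0.00229). Numb overlaps Papln, a gene with 247 RNA counts.

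Hes1 (chromosome 16, 30065357 to 30067796), a repressor that is a direct target in many tissues, was close to the limit of detection. Its raw counts were 21, 11 and 20 in stimulated libraries, against 9, 20 and 8 in unstimulated libraries. That is 0.927, 0.418 and 0.857 CPM in stimulated cells, against 0.213, 0.661 and 0.191 CPM in unstimulated cells. The groups overlapped. The log2 change of 1.06 ± 0.84 did not pass (adjusted p = 0.399). In unstimulated cells the highest value was in replicate 2, the library of most background in that state, and the part of background in so few counts was not tested.

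Within the stimulated state, and with scaling over all genes tested, library order was shared among the members. In 7 of the 7 members other than Hes1, the library of least background was the highest and that of most background the lowest. In the unstimulated state the same held for the highest in 5 of 7 and for the lowest in 6 of 7. Scaling moves all genes of a library alike, and the share of all genes with this order was not counted. With scaling on genes of at least 10 CPM, the stimulated library of least background was highest only in Ncstn. Adam10 was then at 118, 120 and 115 CPM in stimulated replicates 1, 2 and 3. Measured against the median of the genes of at least 10 CPM, the changes of the 7 members other than Hes1 varied little over the 17 settings. Rbpj was 0.95 to 0.98 above that median on the log2 scale, Notch2 0.35 to 0.44, Numb 0.22 to 0.32 and Notch1 0.04 to 0.16. Adam10 lay between -0.20 and -0.14, Maml1 between -0.20 and -0.12, and Ncstn between -0.26 and -0.22. The ranges of Adam10 and Maml1 overlap, and their order changed with the setting. Hes1, with its few counts, ranged from 0.93 to 1.98 over 16 settings.

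**Figure D2:**
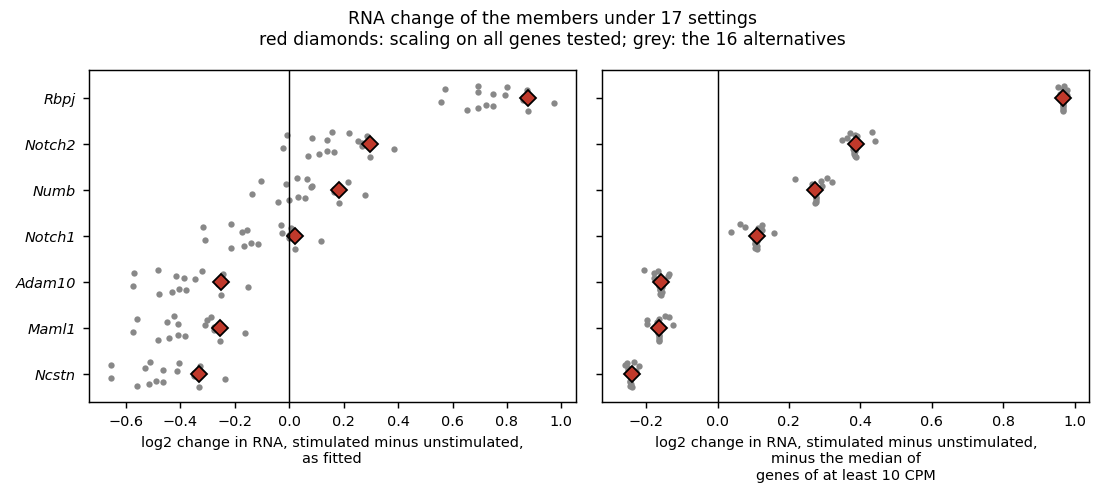
Log2 change in RNA, stimulated minus unstimulated, of 7 members under 17 settings, as fitted (left) and after subtracting the median of genes of at least 10 CPM (right); red diamonds are the scaling over all genes tested, grey points the 16 alternatives. The points of each member come together on the right, where a shift common to all genes has been subtracted, with Rbpj alone near 0.97.

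The genes whose log2 CPM followed each member most closely over the 6 RNA libraries were picked by Pearson's r among 8491 genes of at least 10 CPM. These points share library scaling and depth, and r is a description. Rbpj was most like Mrps6, Pno1 and Traf6 (r = 0.9999, 0.9998 and 0.9998), and Notch2 most like Rpusd4 (0.999), Nfe2l1 (0.998) and Ube2g2 (0.998). Notch1 was most like Slc7a1 (0.996), Qdpr (0.994) and Slc35b2 (0.993), and Numb most like Fbxl5 (0.991), Arl13b (0.990) and Stam2 (0.987). Ncstn was most like Shisa5, Exoc1 and Cd3d, Adam10 most like Srpk1, Gstz1 and Acsl5, and Maml1 most like Klhdc3, Dcaf4 and Ap1m1, with r from 0.998 upwards. Hes1, with its few counts, was most like Prdm1 (0.957), Tfcp2 (0.931) and Grk5 (0.930).

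In the footprint libraries Notch1 had 16 and 22 footprints in stimulated replicates 2 and 3, against 3, 3 and 3 in the unstimulated replicates. Both stimulated libraries lay above all 3 unstimulated ones, also after scaling, at 740 and 916 CPM against 312, 198 and 186 CPM. The means were 828 ± 125 CPM (SD, n = 2) and 232 ± 69.5 CPM (SD, n = 3). Notch1 was the 1 member of 8 that passed the filter on low counts, and it passed through the stimulated libraries, and a gene that passes in this way has to differ. Its log2 change in footprints was 1.86 ± 0.79, which did not pass (unadjusted p = 0.0181, adjusted p = 0.125, edgeR over 256 genes). Of those 256 genes, 5.86% were called raised and 3.52% lowered, and no member was called in either direction. An unadjusted p under 0.05 was found for 54 of the 256.

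Translational efficiency, footprints per RNA, was compared between the states in 1 model over all 11 libraries. For Notch1 the log2 change in efficiency was 1.77 ± 0.50, and it did not pass (adjusted p = 0.0566). The model gives each gene 1 spread for both assays, and this SE is below the 0.79 of the footprint change alone. The p-values of efficiency may therefore be too small. Notch1 entered this test by the same filter, through its stimulated footprints, so a positive value follows in part from the filter and its size and sign are a description. Of the genes tested, 1.57% were called raised and 1.57% lowered. The adjusted p ranged from 0.0186 to 0.9999 over 19 alternatives. It passed with DESeq2 (log2 change 1.97, adjusted p = 0.0375) and with library totals (2.12, adjusted p = 0.0186), and did not with limma voom (1.55, adjusted p = 0.116) or with no filter, where no gene passed. With each library left out in turn it lay between 1.57 and 1.93, with adjusted p from 0.0512 to 0.173.

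Each member's footprints were set beside the number expected if footprints were divided among genes as the RNA of the same state is. Notch1 had 38 footprints in stimulated cells where 10.3 were expected, a ratio of 3.69 (exact 95% Poisson interval 2.61 to 5.06), and 9 in unstimulated cells where 10.6 were expected, a ratio of 0.845 (0.387 to 1.60). These intervals cover counting error only. Both ratios keep 4 abundant genes (Gm10800, Gm10801, Gm20594 and Lars2) in the RNA share. With those genes left out, 12.9 footprints of Notch1 were expected in stimulated cells, a ratio of 2.95 (2.09 to 4.04). In unstimulated cells 11.5 were then expected, a ratio of 0.781 (0.357 to 1.48). The comparison with other genes that follows keeps the 4 genes. Of the 1787 genes with at least 5 expected footprints in stimulated cells, 50 had a ratio at or above that of Notch1 (2.80%), and of the 1939 such genes in unstimulated cells, 816 did (42.1%). The medians of those genes were 0.874 and 0.711.

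Notch2 had 4 and 7 footprints in stimulated libraries, against 3, 3 and 2 in unstimulated libraries. The 11 stimulated footprints compare with 12.6 expected (ratio 0.875, interval 0.437 to 1.57) and the 8 unstimulated ones with 10.7 (ratio 0.745, interval 0.322 to 1.47). Notch4 had 3 footprints in each state, where 0.147 and 0.120 were expected in stimulated and unstimulated cells, and is not in the share below. The share of Notch1 in the footprints of Notch1 and Notch2 was 77.9% ± 2.93 in stimulated cells (SD, n = 2). In unstimulated cells it was 53.3% ± 5.77 (SD, n = 3), a difference of 24.6 percentage points. The exact two-sided permutation p was 0.1, the smallest that 10 arrangements give. In RNA the same share differed in the opposite direction. The test of the share was planned for RNA only. The share in footprints rests on the same stimulated Notch1 footprints by which the gene passed the filter, so its direction is a description.

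Adam10 had 10 and 5 footprints in stimulated libraries, against 4, 4 and 0 in unstimulated libraries. Its ratio was 3.15 in stimulated cells (15 against 4.76 expected, interval 1.76 to 5.199) and 1.35 in unstimulated cells (8 against 5.91, interval 0.585 to 2.67). The intervals of the 2 states overlapped. With the 4 abundant genes left out of the RNA share, the ratios of Adam10 were 2.52 (1.41 to 4.15) and 1.25 (0.540 to 2.46). Ncstn had 1 and 1 footprints in stimulated libraries, against 1, 3 and 4 in unstimulated libraries, with ratios of 0.728 (0.0881 to 2.63) and 2.21 (0.955 to 4.36) in stimulated and unstimulated cells. Neither gene passed the filter on low counts, so a difference between the states was not tested. Overlap of the intervals does not test it.

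Rbpj had fewer footprints than its RNA share gave in both states. It had 5 and 0 in stimulated libraries, against 0, 0 and 3 in unstimulated libraries. The ratios were 0.317 (5 against 15.8 expected, interval 0.103 to 0.739) and 0.334 (3 against 8.99, interval 0.0689 to 0.976) in stimulated and unstimulated cells. Ratios this low were common, since 21.2% of the genes with at least 5 expected footprints were at or below that of Rbpj in stimulated cells and 25.7% in unstimulated cells. The rise of Rbpj RNA could not be followed into footprints with 8 footprints in all.

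Maml1 had 0 and 1 footprints in stimulated libraries, against 0, 0 and 0 in unstimulated libraries, where 1.78 and 2.22 were expected per state. Numb had none in any library, where 1.21 and 1.11 were expected. Hes1 had none either, where 0.0309 and 0.0152 were expected. Taking 3 counts as the limit, a count of 0 allows up to 67.4 CPM over the 44489 stimulated footprints and 73.3 CPM over the 40944 unstimulated ones. Summed over all 8 members, footprints came to 72 against 49.2 expected in stimulated cells (ratio 1.46, interval 1.145 to 1.84) and to 36 against 43.2 in unstimulated cells (0.833, interval 0.583 to 1.153). Without Notch1 the ratios were 0.875 and 0.828. These sums keep the 4 abundant genes in the RNA share. Leaving those out raised every member's expected count, more so in stimulated cells, and the sums were not remade.

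**Figure D3:**
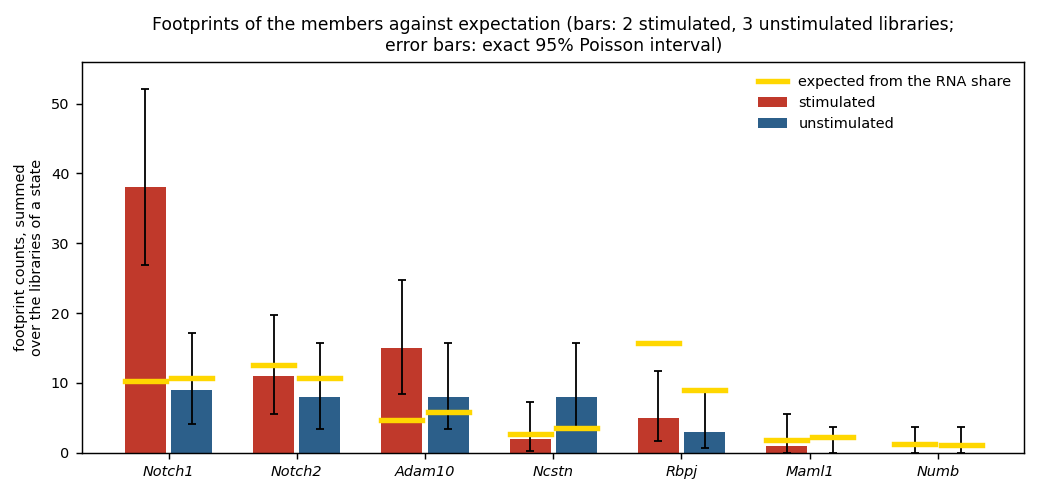
Footprint counts of 7 members, summed over 2 stimulated (red) and 3 unstimulated (blue) libraries, with exact 95% Poisson intervals; yellow lines give the count expected from the RNA share of the same state. The stimulated bar of Notch1 stands at 38 with 10.3 expected, and its unstimulated bar at 9 with 10.6 expected. The lines keep the 4 abundant genes in the RNA share, and without those genes 12.9 and 11.5 were expected for Notch1. Hes1, with no footprint, is not drawn.

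The other genes of the pathway were counted from 9 lists of 88 genes, 86 of them tested in RNA: 7 were raised, 5 lowered and 74 not called, in a test where 3.58% of all genes were raised and 4.68% lowered, with a median log2 change of 0.09 beside 0.39 for all genes. These counts depended on single libraries, as did those of all genes. Without unstimulated replicate 2 there were 21 raised and 42 lowered, beside 6851 and 6173 of all 19219 genes tested. Without stimulated replicate 3 there were 9 and 30, beside 984 and 4271 of all 19468. Over the 6 libraries left out in turn there were 4 to 21 raised and 2 to 42 lowered. Restricted to genes of at least 10 CPM, 23 of 60 were raised and 25 lowered, near the shares of all genes given above.

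Before the receptor reaches the surface, furin and glycosyltransferases process it. Of 9 such genes tested 1 rose and none fell. Furin, the protease that makes the first cut, was at 238, 348 and 437 CPM in stimulated cells, against 78.1, 73.2 and 83.1 CPM in unstimulated cells. It rose 4.36-fold without overlap (log2 change 2.13 ± 0.24, adjusted p = 3.3e-04), and the call held in all 16 alternatives. Its footprints were 16 with 14.1 expected in stimulated cells and 7 with 3.39 expected in unstimulated cells. The ligand genes were low, with summed levels over 7 genes of 10.3 to 13.9 CPM in stimulated and 5.25 to 10.8 CPM in unstimulated cells, and none was called. Those with the most counts, not adjusted for length, were Jag2 (3.26 ± 0.328 against 2.77 ± 0.150 CPM) and Jag1.

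None of the 7 other shedding and gamma-secretase genes was called. Adam17, another sheddase, was at 89.0 ± 18.6 CPM in stimulated and 103 ± 8.40 CPM in unstimulated cells (SD, n = 3 each; log2 change -0.21 ± 0.19, adjusted p = 0.436). It was called lowered without unstimulated replicate 2 (adjusted p = 1.5e-04) and without stimulated replicate 3 (0.0157). In these fits 6173 of 19219 and 4271 of 19468 genes were lowered. In the restricted test, where 36.4% of all genes were lowered and 36.9% raised, 4 of 5 of these genes were lowered, Adam17 (-0.12) among them, and Psenen, a gamma-secretase subunit, was raised (0.22).

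Of 8 other nuclear coactivator genes, 1 fell and none rose. Maml3, the Mastermind relative of Maml1, was at 7.15, 7.33 and 7.54 CPM in stimulated cells, against 12.9, 13.02 and 11.6 CPM in unstimulated cells (log2 change -0.77 ± 0.17, adjusted p = 0.0188). Of 15 corepressor genes 1 fell and none rose. Tle4, a Groucho-family corepressor, was at 71.7, 82.0 and 106 CPM in stimulated cells, against 192, 175 and 191 CPM in unstimulated cells. It fell 2.15-fold without overlap (log2 change -1.10 ± 0.19, adjusted p = 0.00555). The call for Tle4 held in all 16 alternatives, while that for Maml3 was lost without stimulated replicate 2 or unstimulated replicate 1 or 3, with adjusted p of up to 0.217.

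Of 19 genes for trafficking and degradation 1 rose, 2 fell and 16 were not called. Lnx2, a ubiquitin ligase reported to bind Numb, rose to 58.0 ± 15.4 CPM in stimulated cells, against 34.8 ± 1.67 CPM in unstimulated cells (SD, n = 3 each; log2 change 0.73 ± 0.19, adjusted p = 0.0385). Aak1, a kinase that phosphorylates Numb, fell to 129 ± 24.2 CPM, against 234.6 ± 11.6 CPM in unstimulated cells (-0.86 ± 0.19, adjusted p = 0.0182). Neurl3, of the Neuralized ubiquitin ligase family, was at 64.2 ± 16.2 and 109 ± 7.74 CPM in stimulated and unstimulated cells (-0.77 ± 0.20, adjusted p = 0.0359). All 3 calls were lost without stimulated replicate 1 or 2 or unstimulated replicate 1 or 3, with adjusted p of up to 0.314, 0.111 and 0.179 in that order.

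None of 7 tested HES and HEY genes was called, and those with the most counts, not adjusted for length, were Hes6 (9.78 ± 3.27 against 11.7 ± 1.83 CPM in stimulated and unstimulated cells) and Hes7 (3.64 ± 0.558 against 1.51 ± 1.28 CPM). Without unstimulated replicate 2 Hes6 was called lowered (log2 change -0.64, adjusted p = 0.00157) and Hes7 raised (1.99, adjusted p = 0.00200). That fit lowered 6173 and raised 6851 of 19219 genes. Of 15 tested genes reported as Notch targets in T cells, 5 rose, 1 fell and 9 were not called, where 3.58% of all genes rose and 4.68% fell, and these genes are known to respond to other signals too. Ifng (log2 change 5.25), Myc (1.83), Il2ra (1.32), Tbx21 (0.93), a T-box regulator of effector cells, and Cdkn1a (0.90), a cell cycle inhibitor, rose, and Tcf7 (-1.04), a factor of naive and memory cells, fell. The calls for Tbx21 and Cdkn1a were lost without stimulated replicate 1 or 2 or unstimulated replicate 3, and that for Tbx21 also without unstimulated replicate 1, with adjusted p of up to 0.255 and 0.215. Myc had a lower efficiency in stimulated cells (log2 change -1.18 ± 0.32, adjusted p = 0.0458), a call lost in 15 of 19 alternatives. That SE too is below the 0.37 of its footprint change alone. Of the 3 listed genes that passed the filter in footprints, Ifng was called raised (3.97 ± 0.55) and Myc (0.76) and Gzmb (-0.12) were not called. Ifng had 62 and 48 footprints in stimulated libraries, against 3, 1 and 2 in unstimulated libraries. It passed the filter through the stimulated libraries, so a positive value follows in part from the filter.

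**Figure D4:**
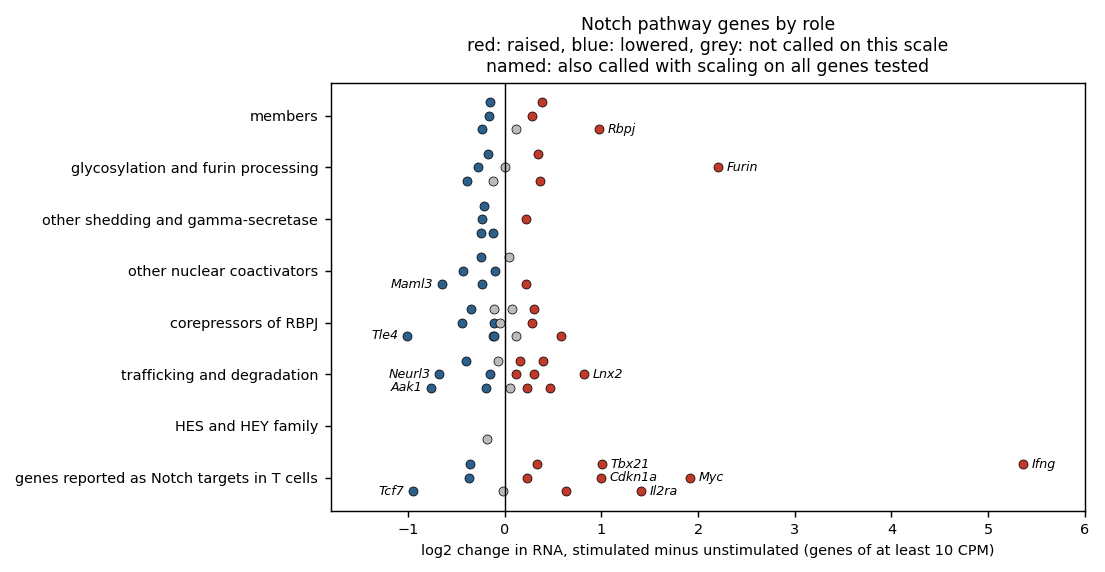
Log2 change in RNA, stimulated minus unstimulated, of members and further pathway genes of at least 10 CPM, by role; red and blue points were raised and lowered at an adjusted p under 0.05 on this scale, grey points were not called, and named genes were also called with scaling over all genes tested. Most points lie within 0.5 of zero. Those outside include Ifng at 5.36, Furin at 2.21, Myc at 1.92, Il2ra at 1.41 and Tle4 at -1.01.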

How the data were processed

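The authors deposited counts of coding-sequence reads for each gene in 6 RNA and 5 footprint libraries, as whole numbers that were not normalized. The series-wide table equals the single files in all 241527 values. The aligner was STAR 2.5 and the build mm10 (GRCm38), per the submitters' processing notes. The counting tool, annotation release, strand setting and read filters are not given in the sources used here. A stimulated footprint replicate 1 was not analysed here. Symbols and positions came from the NCBI annotation of GRCm38, which named 21838 identifiers and left 119 unnamed. Sequences are from RefSeq tables of GRCm38.p6.

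For RNA and for footprints, edgeR 4.0.16 in R 4.3.3 gave the quasi-likelihood F test after TMM scaling; genes had to pass its filterByExpr step (minimum count 10, minimum total 15). Efficiency was the interaction of assay and stimulation with TMM factors within each assay. P-values were adjusted by Benjamini-Hochberg over all genes tested, two-sided, at 0.05. Expected footprints are the mean RNA share of a state times its footprint total, and intervals are exact Poisson at 95%. Likeness used log2(CPM + 0.5). A count of 0 was taken to allow 3 counts. Levels per coding length were planned and not made, so levels are not compared between genes; receptor shares and the choice of genes to name rest on counts not adjusted for length. Alternatives were DESeq2 1.42.0, limma 3.58.1 voom, other scalings and filters, an adjusted p of 0.01, a replicate block and leaving out each library. Leaving out the 3 RNA libraries of most background together was chosen after seeing the data. The scripts were tested on simulated data. Replicate libraries differed by more than sampling noise. The genes named are the members, every pathway gene that passed in RNA, the 2 with the highest CPM of a list where none passed, and 3 most similar genes a member; Psenen, Gzmb and the marker and overlapping genes were named besides. One gene that this rule would name is not reported here. The members, lists and tests were chosen with earlier results of these data known.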

Additional observations from a re-analysis of the deposited data

How the results depend on the processing

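The number of members called raised in RNA, 1 as reported, was 0 with RLE size factors, without 4 abundant genes (Gm10800, Gm10801, Gm20594 and Lars2) in the scaling, with no filter, with DESeq2 and at an adjusted p of 0.01, 3 among genes of at least 10 CPM, and 0 to 1 with each library left out. The number lowered, 0 as reported, was 3 with library totals, 3 among genes of at least 10 CPM and 0 to 4 with each library left out. Further pathway genes raised, 7 as reported, were 4 with RLE, with no filter, with DESeq2 and at 0.01, 11 with voom, 13 without the 3 libraries of most background, 23 among genes of at least 10 CPM and 4 to 21 with each library left out. Those lowered, 5 as reported, were 32 with library totals, 25 among genes of at least 10 CPM, 17 with DESeq2, 8 with voom, 2 at 0.01, 38 without the 3 libraries of most background and 2 to 42 with each library left out. Efficiency calls among members went up to 1, Notch1, with library totals, which moved the median of all genes to 0.29, and with DESeq2. The Notch1 RNA change was -0.21 with RLE, -0.17 with library totals, -0.11 without the 4 genes, -0.14 with no filter and -0.31 with DESeq2. It was -0.21 without the 3 libraries of most background and -0.317 to 0.0079 with each library left out. Notch2 was -0.0235 with DESeq2 and -0.00962 to 0.29 with each library left out. Numb was -0.0398 with RLE, -0.000535 with library totals, -0.13 with DESeq2 and -0.10 to 0.22 with each library left out. Jag2 was -0.069 with DESeq2 and -0.21 without the 3 libraries of most background, where Jag1 was -0.13. The cause of these shifts was not tested. Rbpj, positive throughout, kept its call in 7 of 16 alternatives and lost it in 9 (adjusted p from 1.1e-08 to 0.278).

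Whether replicate numbers pair the samples could not be decided. Same-numbered RNA libraries deviated together with correlations of -0.41, 0.31 and 0.63, and differently numbered ones with -0.71 to 0.58. Libraries of like background also went together. The correlation was 0.58 for stimulated 1 with unstimulated 2 (high background) and 0.53 for stimulated 3 with unstimulated 1 (low background). With the replicate block 1 member was raised and 0 lowered, and 8 and 5 further genes were called, beside 1236 and 1168 of all 18886 genes. Rbpj was then 0.86 (adjusted p = 0.0122), Notch1 efficiency 1.95 (adjusted p = 0.153) and Hes7 1.57 (adjusted p = 0.0499). Depth limits the footprint results: outside Notch1 no member passed the filter.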
